A study of Homo sapiens with 6 samples.

Results

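The 10 nuclear genes described here encode proteins that package, transcribe and copy mitochondrial DNA, together with the pores of the mitochondrial outer membrane. They were taken as a list of symbols, and all 10 were found among the 57736 genes of the count table and passed its filter on low counts, as did 14653 genes in all. RNA came from PC3 cells, a human prostate cancer line, in libraries labelled siMic60 (n = 3), for silencing of the mitochondrial protein Mic60 with small interfering RNA, or siCTRL (n = 3), for control small interfering RNA. The sample titles call the same groups Mic60 KO and Mic60 WT, and no further treatment, dose or time is labelled. All values come from 1 cell line, and the labels do not say whether replicates were separate cultures, and p-values therefore rest on variation from library to library that may be partly technical. The comparison asks which transcripts differed when Mic60, a structural protein of the inner membrane and a core part of the MICOS complex, was depleted.

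Mitochondrial DNA is a small circular genome that TFAM coats and bends into compact nucleoids. TFAM and TFB2M bring the mitochondrial RNA polymerase POLRMT to the promoters, and its transcripts also prime replication by the DNA polymerase POLG with its accessory subunit POLG2, the helicase TWNK and the single-stranded DNA-binding protein SSBP1. VDAC1, VDAC2 and VDAC3 form voltage-dependent channels through which ATP, ADP and other small metabolites cross the outer membrane.

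Total counts were 6644495 to 8779877 in siMic60 libraries and 7714837 to 8396244 in siCTRL libraries. IMMT (ENSG00000132305), which encodes Mic60, was at 5.83, 7.34 and 8.53 CPM (counts per 1000000, scaled by TMM) in siMic60 libraries, against 88.9, 91.2 and 90.4 CPM in siCTRL libraries (a log2 fold change of −3.62 with a standard error of 0.15 and an adjusted p = 4.29e-10 in edgeR). Of the prostate markers, KLK3 had no count in any library, where 3 counts, the limit that a count of 0 allows, equal 0.342 to 0.452 CPM of the library total. All 5 epithelial markers listed (KRT8, KRT18, KRT19, EPCAM and CDH1) were expressed, with a summed level of 1081 to 1110 CPM in siMic60 and 1501 to 2081 CPM in siCTRL libraries. Of these 5, 3 fell and 1 rose, KRT8, at 159.7 to 197 CPM in siMic60 and 108 to 131 CPM in siCTRL libraries. The 9 leukocyte markers summed to 0.922 to 1.47 CPM in siMic60 and 0.959 to 1.63 CPM in siCTRL libraries, with CD3D, CD3E, CD2, MS4A1 and NKG7 at 0. The 8 fibroblast and endothelial markers measured summed to 47.5 to 68.7 CPM in siMic60 and 278 to 373 CPM in siCTRL libraries, nearly all of it COL1A1, with DCN, VWF and CDH5 at 0. The part of these marker shifts in the values below was not tested, and in bulk RNA fewer cells of a type and less RNA per cell cannot be told apart.

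TFAM, TFB2M and TWNK rose in siMic60 cells, by 1.48-fold to 1.71-fold, and none of the 10 genes fell. These 3 of 10 calls, at a Benjamini-Hochberg adjusted p under 0.05 in edgeR's quasi-likelihood test, stand beside 17.7% of all genes tested that rose and 17.9% that fell (35.5% either way). For the 0 that fell, edgeR also gave 0 at an unadjusted p under 0.05, and DESeq2 and limma-trend gave 0 as well, while each tool called 3 higher. The fitted log2 fold change was positive for 7 of the 10 genes with a median of 0.16, where 50.2% of all genes tested were positive with a median of 0.0022. The libraries of the groups did not overlap for TFAM and TWNK, both higher, and for POLG, which was lower, beside 23.7% of all genes apart and higher and 24.1% apart and lower (47.9% either way).

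**Figure D1:**
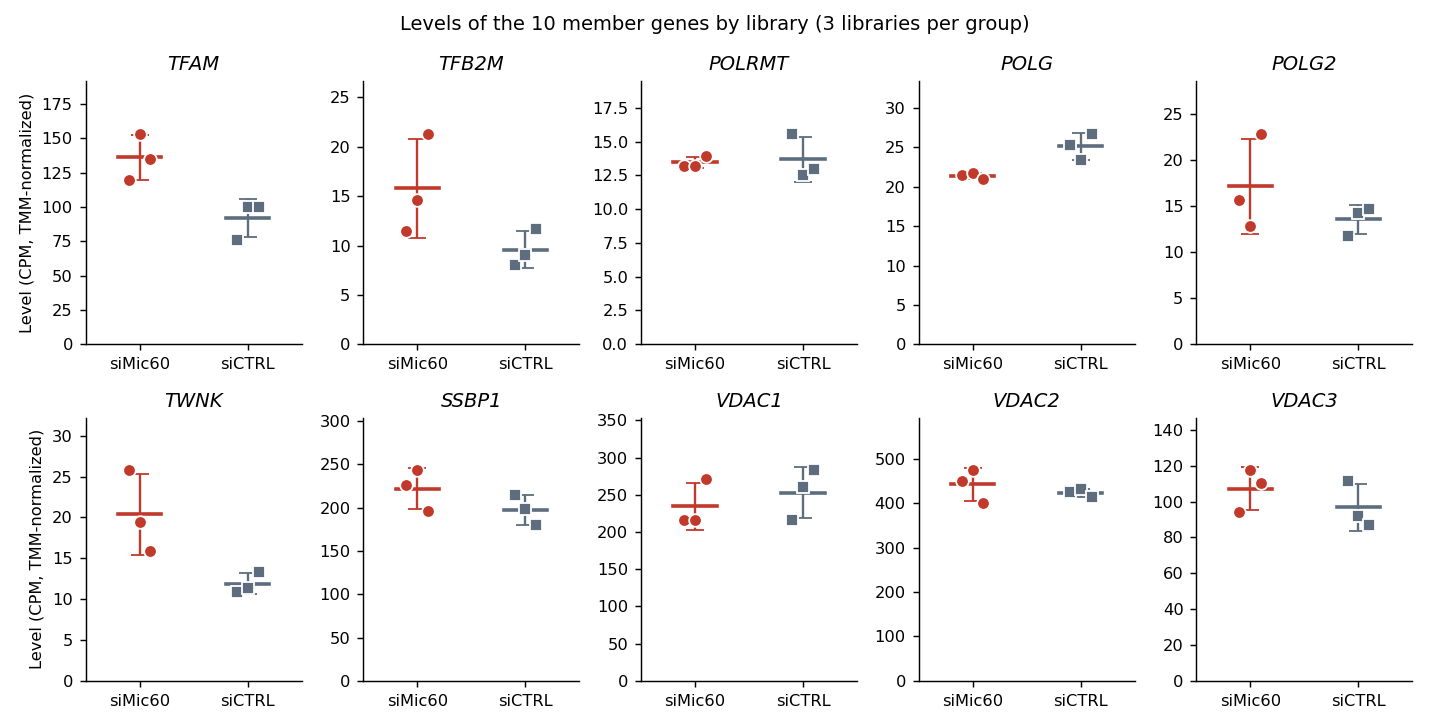
Level of each of the 10 genes (CPM after TMM normalization, linear axis) in siMic60 and siCTRL libraries, with 1 point per library, a line at the mean and bars of 1 SD (n = 3 each). TFAM and TWNK lie higher in every siMic60 library than in any siCTRL library, POLG lies lower, and the groups overlap for the other 7 genes.

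The promoters of the transcription genes are shown because TFAM and TFB2M rose and POLRMT did not pass the test. Each window runs from 250 bases before to 50 bases after a RefSeq start site on GRCh38.p14, at chr10:58385160-58385459 on the plus strand for TFAM, chr1:246566212-246566511 on the minus strand for TFB2M and chr19:633488-633787 on the minus strand for POLRMT. Capitals mark matches on either strand to GCGCA and GCGC with 1 base of any kind between them, the core of sites for the nuclear respiratory factor NRF1, or to CCGGAAG, the core of sites for the ETS-family factor GABPA.
TFAM: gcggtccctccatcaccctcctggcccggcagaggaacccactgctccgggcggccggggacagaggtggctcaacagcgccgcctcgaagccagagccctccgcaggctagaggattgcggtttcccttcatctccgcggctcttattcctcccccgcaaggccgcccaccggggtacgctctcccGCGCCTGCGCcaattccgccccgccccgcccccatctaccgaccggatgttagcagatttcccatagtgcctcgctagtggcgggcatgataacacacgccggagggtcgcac
TFB2M: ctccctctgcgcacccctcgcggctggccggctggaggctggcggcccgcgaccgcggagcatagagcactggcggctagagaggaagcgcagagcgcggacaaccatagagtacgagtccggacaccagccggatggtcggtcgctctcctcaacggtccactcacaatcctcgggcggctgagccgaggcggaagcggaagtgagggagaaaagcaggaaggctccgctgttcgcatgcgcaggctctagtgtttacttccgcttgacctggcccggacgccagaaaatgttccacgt
POLRMT: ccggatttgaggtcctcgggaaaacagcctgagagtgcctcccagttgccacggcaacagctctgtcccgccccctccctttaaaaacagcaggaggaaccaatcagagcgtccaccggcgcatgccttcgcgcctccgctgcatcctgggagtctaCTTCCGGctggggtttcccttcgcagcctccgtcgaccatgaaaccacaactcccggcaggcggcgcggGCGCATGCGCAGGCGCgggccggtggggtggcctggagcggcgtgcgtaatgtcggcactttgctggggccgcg
The TFAM window holds 1 match to the NRF1 letters, and the POLRMT window holds 2 that overlap each other and 1 match to the GABPA letters. The TFB2M window holds no exact match to either. Stretches that differ from the letters by 1 base were not counted in any window. The TFB2M window has such stretches, tcgcatgcgc for NRF1 and gcggaag for GABPA, so a missing match does not show a missing site. RefSeq windows were searched for 8 of the 10 genes, 14 windows in all, of which several from 1 gene overlap. No window of TWNK or VDAC3 was searched. The NRF1 letters were in 3 of these 14 windows, of TFAM, POLG2 and POLRMT, against 5.78% of 35116 windows of this length. The GABPA letters were in 7 of the 14, of VDAC1, VDAC2, SSBP1, POLG2 and POLRMT, against 10.3% of all windows. A match describes letters and no binding, and TFAM and TFB2M had neither of these motifs in common. The letters GGGCGG, for sites of the factor SP1, were also searched and are not marked above. They were in 11 of the 14 windows, against 44.95% of all windows. All 8 genes had a window with them, TFAM, TFB2M and POLRMT included.

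TFAM (ENSG00000108064), the packaging protein and transcription factor, was at 120.0, 153 and 135 CPM in siMic60 libraries, against 75.9, 99.8 and 100.2 CPM in siCTRL libraries. Every siMic60 library lay above every siCTRL library, and siCTRL replicate 1 was the lowest of all 6. The means were 136 ± 16.7 CPM in siMic60 and 92.0 ± 13.9 CPM in siCTRL libraries (SD, n = 3 each), a fold of 1.48 (95% interval 1.21 to 1.82, log2 fold change 0.57 with a standard error of 0.14, adjusted p = 0.00534 from edgeR).

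TFB2M (ENSG00000162851), the factor that helps POLRMT open the promoter, was at 11.5, 14.6 and 21.3 CPM in siMic60 libraries, against 8.03, 9.01 and 11.7 CPM in siCTRL libraries. The groups overlapped, since siMic60 replicate 1 lay just below siCTRL replicate 3, and siMic60 replicate 3 stood highest. The means were 15.8 ± 5.03 CPM in siMic60 and 9.58 ± 1.91 CPM in siCTRL libraries (SD, n = 3 each), a fold of 1.66 (95% interval 1.17 to 2.35, log2 fold change 0.73 with a standard error of 0.24, adjusted p = 0.0252 from edgeR). This call rested on single libraries. The edgeR log2 fold change was 0.45 without siMic60 replicate 3 (adjusted p = 0.175), 0.62 without siCTRL replicate 1 (adjusted p = 0.0756) and 0.68 without siCTRL replicate 2 (adjusted p = 0.0786), and the counts behind it were 75 to 185 in siMic60 and 67 to 95 in siCTRL libraries.

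POLRMT (ENSG00000099821), the RNA polymerase itself, was at 13.2, 13.2 and 14.0 CPM in siMic60 libraries, against 15.6, 12.5 and 12.9 CPM in siCTRL libraries. All siMic60 values lay inside the siCTRL range. The fold was 0.984 (95% interval 0.760 to 1.27, adjusted p = 0.933 from edgeR), and the sign of the change was kept in 13 of 15 other settings.

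Among the replication genes, TWNK (ENSG00000107815), the helicase that unwinds mitochondrial DNA ahead of the polymerase, was at 25.8, 19.5 and 15.9 CPM in siMic60 libraries, against 10.9, 11.4 and 13.3 CPM in siCTRL libraries. The groups did not overlap, and the siMic60 libraries were spread more widely than the siCTRL libraries. The means were 20.4 ± 4.99 CPM in siMic60 and 11.9 ± 1.27 CPM in siCTRL libraries (SD, n = 3 each), a fold of 1.71 (95% interval 1.28 to 2.28, log2 fold change 0.77 with a standard error of 0.20, adjusted p = 0.00675 from edgeR). TWNK overlaps MRPL43, a mitochondrial ribosomal protein gene on the opposite strand, and since no source used here gives the strand setting of the counting, reads of the pair are uncertain. MRPL43 averaged 9.53 ± 0.771 CPM in siMic60 and 13.4 ± 2.03 CPM in siCTRL libraries, a difference in the other direction that did not pass (log2 fold change −0.49, adjusted p = 0.0607 from edgeR).

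POLG (ENSG00000140521), the catalytic subunit of the DNA polymerase, was at 21.5, 21.8 and 21.0 CPM in siMic60 libraries, against 25.3, 23.4 and 26.8 CPM in siCTRL libraries. The siMic60 values were all lower and close together, but the fold of 0.851 did not pass (95% interval 0.691 to 1.05, adjusted p = 0.221 from edgeR). POLG overlaps FANCI, a DNA repair gene on the opposite strand that rose and shares the same uncertainty (log2 fold change 0.73, adjusted p = 0.0091 from edgeR).

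POLG2 (ENSG00000256525), the accessory subunit that keeps the polymerase on its template, was at 15.6, 12.8 and 22.8 CPM in siMic60 libraries, against 11.7, 14.3 and 14.7 CPM in siCTRL libraries. The groups overlapped, and 1 library carried most of the difference, as the log2 fold change was 0.34 with all libraries (adjusted p = 0.232 from edgeR) and 0.07 without siMic60 replicate 3. The log2 ratio of POLG2 to POLG counts, which cancels depth, averaged −0.37 ± 0.45 in siMic60 and −0.90 ± 0.20 in siCTRL libraries (SD, n = 3 each), a difference of 0.53 with overlapping groups (exact permutation test, two-sided, p = 0.2, where 3 against 3 cannot go below 0.1). SSBP1 (ENSG00000106028), which covers the displaced single strand, was at 226, 243 and 197 CPM in siMic60 libraries, against 214, 198 and 180 CPM in siCTRL libraries, with overlapping groups and a fold of 1.12 (95% interval 0.940 to 1.34, adjusted p = 0.302 from edgeR).

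**Figure D2:**
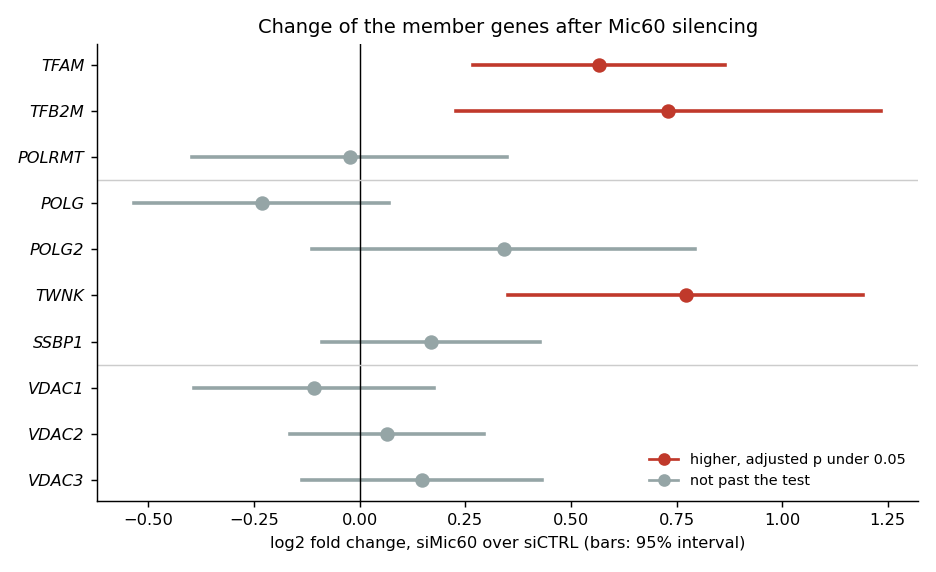
Fitted log2 fold change, siMic60 over siCTRL, of each of the 10 genes, with bars for the 95% interval from edgeR. The intervals of TFAM, TFB2M and TWNK lie above 0, and those of the other 7 genes include 0.

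None of the 3 pore genes passed the test, and their intervals bound the change at 1.35-fold upward and 0.762-fold downward. VDAC1 (ENSG00000213585), the isoform best known for binding hexokinase, was at 217, 216 and 271 CPM in siMic60 libraries, against 216, 260 and 283 CPM in siCTRL libraries. The groups overlapped, with a fold of 0.928 (95% interval 0.762 to 1.13, adjusted p = 0.565 from edgeR). VDAC2 (ENSG00000165637), the isoform that holds the apoptosis effector BAK at the membrane, was at 451, 474 and 401 CPM in siMic60 libraries, against 424, 431 and 413 CPM in siCTRL libraries. The siMic60 libraries lay on both sides of the siCTRL range, and the fold was 1.05 (95% interval 0.891 to 1.23, adjusted p = 0.681 from edgeR). VDAC3 (ENSG00000078668), the third pore isoform, was at 94.1, 117 and 110.2 CPM in siMic60 libraries, against 112, 91.7 and 87.2 CPM in siCTRL libraries. These groups overlapped too, with a fold of 1.11 (95% interval 0.910 to 1.35, adjusted p = 0.419 from edgeR).

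The composition of the pore transcripts was compared as the share of each isoform in the summed VDAC counts. In these libraries of transcript 3′ ends a count stands for a transcript end and was not divided by length, so the shares describe counts. VDAC2 held 59.2%, 58.7% and 51.3% in siMic60 libraries, against 56.4%, 55.0% and 52.7% in siCTRL libraries, and it was the largest share in all 6. VDAC1 averaged 29.95% ± 4.13 in siMic60 and 32.7% ± 3.74 in siCTRL libraries, and VDAC3 averaged 13.7% ± 1.15 in siMic60 and 12.6% ± 2.00 in siCTRL libraries (SD, n = 3 each). The groups overlapped for every isoform, with p = 0.4 for VDAC1, 0.6 for VDAC2 and 0.5 for VDAC3 (exact permutation test, two-sided, 3 comparisons, none under the threshold before adjustment). The widest 95% Wilson interval of a single library's share was 1.37 percentage points to each side, which covers counting error only, so libraries of 1 group differed by more than counting error. The summed VDAC level was 784 ± 22.8 CPM in siMic60 and 773 ± 17.9 CPM in siCTRL libraries.

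The proteins around the 10 genes were read from 5 related lists, as counts beside the same background of 17.7% higher and 17.9% lower. Of 18 partners in mitochondrial DNA replication and repair, 6 rose and 1 fell, with a median log2 fold change of 0.34. UNG, the uracil-DNA glycosylase, averaged 93.1 ± 11.8 CPM in siMic60 and 41.7 ± 3.61 CPM in siCTRL libraries. MGME1, a mitochondrial exonuclease, averaged 29.6 ± 0.873 CPM in siMic60 and 17.2 ± 3.27 CPM in siCTRL libraries. The other named genes that rose were LONP1, the matrix protease that degrades TFAM, by 1.57-fold, and ATAD3B, a nucleoid-associated ATPase, by 2.93-fold, whose near-identical paralog ATAD3A makes its counts uncertain. The gene that fell, named after its value was seen, was RNASEH1, which removes RNA primers, at a fold of 0.697.

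Of 15 transcription factors and nuclear regulators tested, 3 rose and none fell by edgeR (1 was lower at an unadjusted p under 0.05), with a median log2 fold change of 0.18. PPRC1, a coactivator of NRF1 targets, rose 1.78-fold, MRPL12, a ribosomal protein that also binds POLRMT, rose 1.70-fold, and TEFM, the elongation factor, rose 1.69-fold. The count of 3 was 1 without siMic60 replicate 3 and 1 without siCTRL replicate 1. Of 17 genes for the nucleotide supply of mitochondrial DNA, 9 rose and none fell, also none at an unadjusted p under 0.05, with a median of 0.42. CMPK2, a mitochondrial nucleotide kinase, averaged 253 ± 18.2 CPM in siMic60 and 14.3 ± 1.67 CPM in siCTRL libraries, a 17.7-fold difference. SAMHD1, which degrades deoxynucleotides, rose 3.46-fold, TYMP, the thymidine phosphorylase, rose 3.40-fold, and SUCLG2, a subunit of succinyl-CoA synthetase, rose 3.35-fold. The list thus held enzymes that make nucleotides and enzymes that break them down, and members of both kinds rose.

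Of 22 genes for processing and stability of mitochondrial RNA, 8 rose and 2 fell, with a median log2 fold change of 0.19. PNPT1, the mitochondrial polynucleotide phosphorylase, rose 2.13-fold and HSD17B10, a subunit of mitochondrial RNase P, rose 1.57-fold. PRORP, the catalytic subunit of the same enzyme, fell to 20.9 ± 3.73 CPM in siMic60 libraries, against 34.5 ± 3.10 CPM in siCTRL libraries, and FASTKD5, needed for maturing transcripts without flanking tRNAs, fell to 29.3 ± 4.84 CPM in siMic60 libraries, against 48.9 ± 8.49 CPM in siCTRL libraries. The count of 8 was 4 without siMic60 replicate 1 or siCTRL replicate 2, and 5 without siMic60 replicate 2 or 3. Of 22 partners of the VDAC pores, 6 rose and 9 fell, with a median of −0.28, and the count of 6 was 3 without siMic60 replicate 1 and 2 without siCTRL replicate 2. GSK3B, a kinase that phosphorylates VDAC, fell to 58.0 ± 3.68 CPM in siMic60 libraries, against 146 ± 8.84 CPM in siCTRL libraries. PPIF, the matrix cyclophilin D, was at 1172 ± 58.4 CPM in siMic60 and 676 ± 8.18 CPM in siCTRL libraries. MCL1, an anti-apoptotic protein, was at 0.657-fold of its siCTRL level, and CKMT1A, mitochondrial creatine kinase, at 0.319-fold, with counts that are uncertain because CKMT1B is near-identical.

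**Figure D3:**
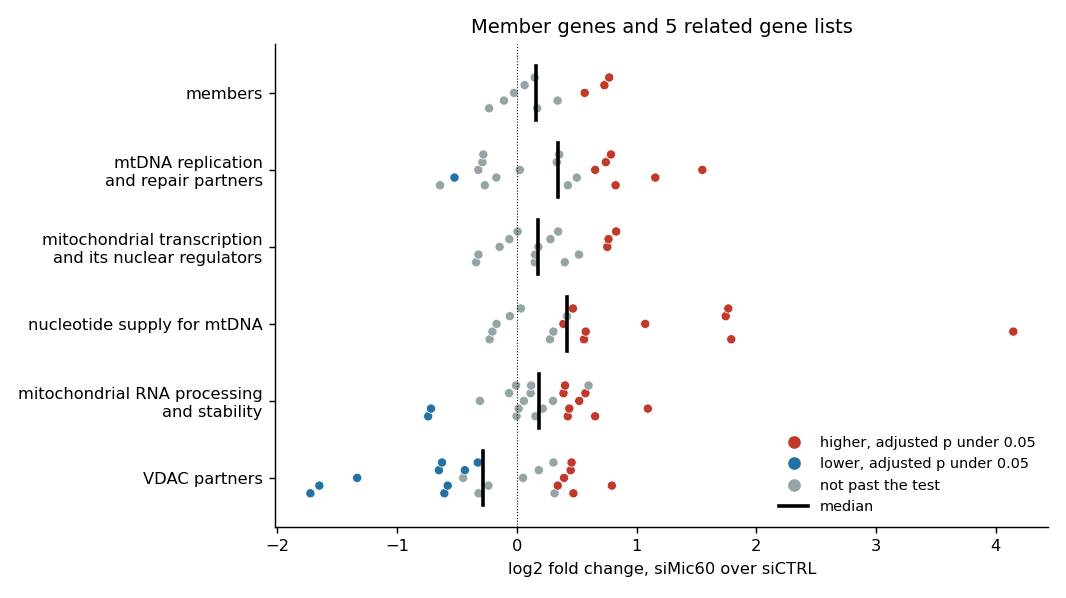
Fitted log2 fold change, siMic60 over siCTRL, of the 10 genes and of each gene tested in 5 related lists, with 1 point per gene. The nucleotide supply list reaches furthest to the right with CMPK2, and the VDAC partner list is the one with more genes lower than higher (9 against 6).

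Genes encoded on the mitochondrial chromosome, the templates of TFAM, TFB2M and POLRMT, were not analysed here. The table does hold rows named as nuclear copies of them, pseudogenes and the MTRNR2L genes, a set chosen after the table was seen. Their likeness to the mitochondrial genes varied, and where a stretch is identical, reads of a nuclear copy and of a mitochondrial transcript cannot be told apart. The last 60 bases of the annotated MTATP6P1 copy (chr1:634317-634376, plus strand) and of MT-ATP6 (chrM:9148-9207, plus strand) are shown from GENCODE 29 transcripts on GRCh38, since libraries of 3′ ends read such stretches. Capitals mark the 1 base that differs.
MTATP6P1: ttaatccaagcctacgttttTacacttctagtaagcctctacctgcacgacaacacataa
MT-ATP6: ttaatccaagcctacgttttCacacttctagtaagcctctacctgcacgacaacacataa
Identity to the mitochondrial gene was taken over the best local alignment, which can cover only part of it. Over the 27 copies tested, it was 79.1% to 99.1%, with a median of 94.9%, and 6 of the 27 reached 98%. Of these 6 rows 4 were lower in siMic60 cells, and of the 21 rows under 98% 14 were lower. Those of the 6 that did not pass had the shortest alignments, MTRNR2L2 with 65 bases of a 1559-base gene and MTND1P23 with 352 of 956.

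Of the 27 rows, 18 were lower in siMic60 cells and none was higher by edgeR, beside 17.9% lower and 17.7% higher over all genes tested, also none at an unadjusted p under 0.05, while DESeq2 called 17 lower and 0 higher and limma-trend 18 lower and 0 higher. MTATP6P1 was at 496, 728 and 496 CPM in siMic60 libraries, against 2057, 1520 and 1292 CPM in siCTRL libraries, so that the groups were well apart (log2 fold change −1.50 with a standard error of 0.18, adjusted p = 1.3e-05 from edgeR). Beside the same 17.9% of all genes, the pseudogenes fell in 14 of 18 rows and the MTRNR2L genes in 4 of 9, and MTND1P23 (log2 fold change −0.22) and MTRNR2L12 (−0.06), both abundant, did not pass. Most pseudogene rows were on 2 chromosomes, 7 on chromosome 1 (6 lower) and 7 on chromosome 5 (6 lower). Rows that share a chromosome or a mitochondrial sequence need not be separate changes, so 18 of 27 does not count separate genes. All named rows of this set were chosen after their values were seen. Together all 402 rows named as such copies, whether tested or not, held 0.813%, 0.822% and 0.786% of all counts in siMic60 libraries, against 1.28%, 1.198% and 1.07% in siCTRL libraries, without overlap.

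**Figure D4:**
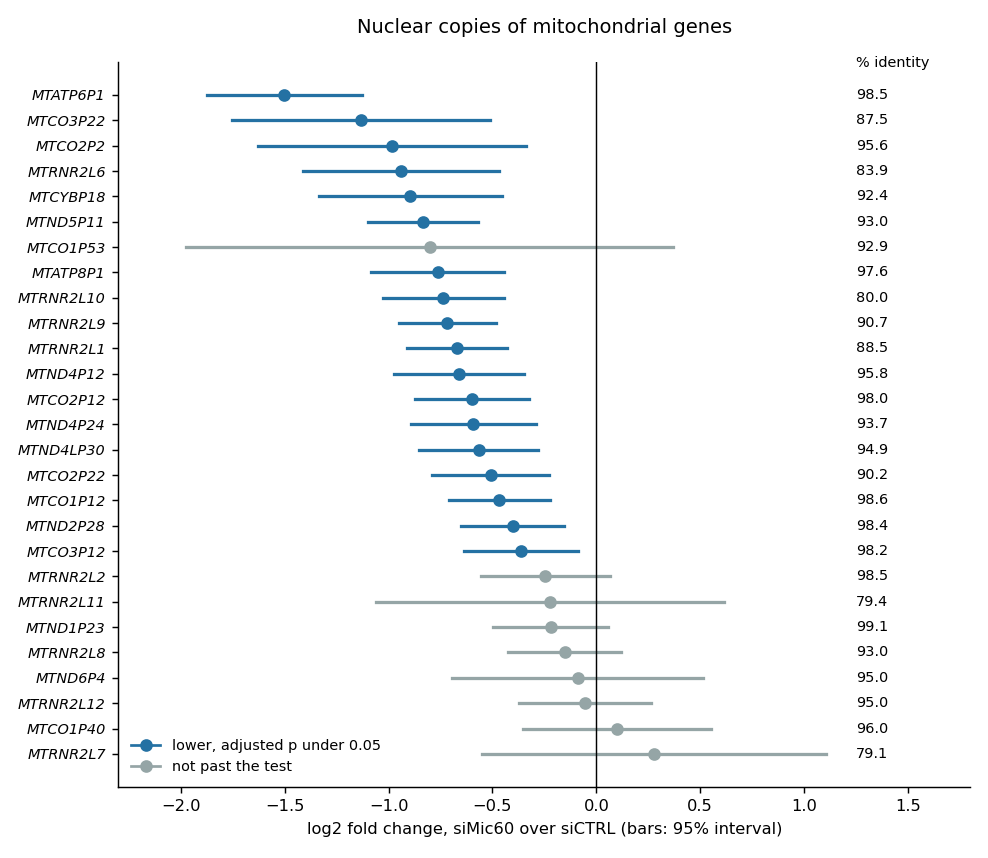
Fitted log2 fold change, siMic60 over siCTRL, of each of the 27 rows named as nuclear copies of mitochondrial genes, with bars for the 95% interval from edgeR. Rows that passed are blue and those that did not are grey. The percent identity to the mitochondrial gene, over the best local alignment, is at the right. In all, 25 of the 27 lie below 0, with MTATP6P1 the lowest at −1.50.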

How the data were processed

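QuantSeq libraries of mRNA 3′ ends were made by the authors from PC3 cells, 3 labelled siMic60 and 3 siCTRL. The authors deposited 1 table of counts per Ensembl gene, 1 column per library, without normalization. In the submitters' processing notes stand DESeq2, hg19 (GRCh37) and RSEM 1.2.3, a program that gives estimated counts, and the whole numbers may therefore be rounded. Which aligner, annotation release and strand setting were used is not given in the sources used here. Reads of overlapping genes and near-identical copies are thus uncertain. Symbols other than the identifier itself were found for 39843 of 57736 rows, from a table of current names and GENCODE 29. Sequences are from RefSeq GRCh38.p14 and GENCODE 29, another build than the counts, and serve as sequence only.

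The test was edgeR 4.0.16 in R 4.3.3 (TMM, at least 10 counts in 3 of 6 libraries, quasi-likelihood test, Benjamini-Hochberg adjustment over 14653 genes, threshold 0.05). The procedure was also run on simulated data. In these a far smaller share of genes was changed than was called here, so the run does not cover the setting of these data. Standard errors are the log2 fold change over the square root of F. DESeq2 1.42.0, limma-trend 3.58.1 (prior count 2), other scalings, filters of 1 and 50 counts, a replicate block, pseudogene counts added, nuclear copies left out, and each library left out were alternatives. Shares were compared by exact permutation. The genes and lists were chosen with earlier results of these data known. Named genes are the 10, IMMT, the 4 called genes with the smallest adjusted p in each list, and the 3 genes most correlated with TFAM and with VDAC1. Libraries of a group differed by more than counting noise (chi-square per degree of freedom 3.54 to 13.5), so none was treated as a repeat deposit of another, which does not show that they are separate cultures. Planned results on mitochondrially encoded genes were not run.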

Additional observations from a re-analysis of the deposited data

How the results depend on the processing

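TFAM and TWNK passed in all 15 alternatives (log2 fold change 0.44 to 0.66 and 0.58 to 0.93), TFB2M passed in 12 (0.45 to 0.92), and the other 7 genes in none. Without 1 library the 10 genes gave 2 to 3 calls higher and 0 lower. Replicate 1 was the lowest siCTRL library for 5 of the 10 genes (TFAM, TFB2M, TWNK, POLG2 and VDAC1) and the highest for 3. Without it the edgeR log2 fold change was 0.44 for TFAM (adjusted p = 0.0153) and 0.71 for TWNK (adjusted p = 0.0196). Genes called over the whole table were 2081 to 2300 higher and 2067 to 2333 lower without 1 library, beside 2587 and 2617 with all. TFB2M lost its call at 0.45 without siMic60 replicate 3, 0.62 without siCTRL replicate 1 and 0.68 without siCTRL replicate 2. Replication partners had 2 lower with library totals and with a minimum of 50 counts, in place of 1. Transcription regulators had 1 lower under the same 2 settings, in place of 0, and without 1 library 1 to 3 higher and 0 to 1 lower. RNA processing genes higher were 4 with library totals and 4 to 6 without 1 library, in place of 8, and VDAC partners higher were 3 with library totals and 2 to 5 without 1 library, in place of 6. The cause of these moves was not tested, and fits without 1 library also had fewer libraries. Library totals moved the median of all genes to −0.055.

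Same-numbered libraries did not deviate together (correlations −0.09 to 0.035 over 3 pairs, 1 of 3 siMic60 libraries closest to its own number). No pairing by number was seen, but 3 pairs cannot exclude one, and the labels do not say how replicates were made. With the replicate block 2384 genes were higher and 2382 lower, and the 10 genes had 3 higher and 0 lower. The alternative that leaves out mitochondrially encoded genes was not run. Genes near 10 CPM rest on about 100 counts a library, and differences below their intervals were not detectable at this depth.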

Other observations

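The genes whose levels followed TFAM most closely over the 6 libraries were H2AZ1, a histone variant (Pearson r = 0.999), TNFRSF10B, a death receptor (0.996), and FANCG, a DNA repair gene (0.991). Those closest to VDAC1 were C17orf75 (0.987), WDR11 (0.987) and AHCTF1, a nuclear pore gene (0.978). These are the highest of all genes tested, the points share 6 libraries and the group difference, and the values are a description without a test.

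TFAM had 14.5, 18.0 and 16.9 counts per 1000 counts of nuclear copies (all 402 rows so named) in siMic60 libraries, against 5.89, 8.63 and 9.60 in siCTRL libraries. The groups did not overlap, and numerator and denominator moved in opposite directions. Each was already apart without overlap on its own, as given above, so the ratio restates those values and is not a separate result.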
